A study of Mus musculus with 40 samples.

Results

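The mitochondrial ribosomal proteins were taken as all genes of the count table whose symbol begins with *Mrpl* or *Mrps* followed by a digit, which gave 77 of 20295 genes. The symbols name proteins of the large (*Mrpl*) and the small (*Mrps*) subunit, and by their known place 50 belong to the large subunit and 26 to the small one. *Mrps18a* and *Mrps30* were counted with the large subunit, where their proteins sit. *Mrps36* was counted in neither, since its product is known as a component of the 2-oxoglutarate dehydrogenase complex. Their transcripts were measured by RNA sequencing in interscapular BAT of 40 male mice, 5 in each of 8 groups. C-3BO mice carry a *Gpr3* transgene behind a loxP-flanked stop in the ROSA26 locus together with *Ucp1*-Cre, so that brown and beige adipocytes overexpress this Gs-coupled receptor from early life, and their control littermates carried either allele alone. These 4 groups, on chow or after 7 days on HFD with 60 kcal% fat, were 13 to 19 weeks old. The other 4 groups, 15 weeks old, received daily injections of saline or of CL-316,243 (CL), an agonist of the β3-adrenergic receptor, at 1 mg/kg for 9 days on chow or HFD. They are labelled wildtype, and were littermate controls of an inducible line, either heterozygous for the *Gpr3* transgene without Cre or positive for CreERT2 without the transgene. On HFD, injections began 2 days before the change of diet. All mice were housed at 29 °C.

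Mitochondrial ribosomes translate the few proteins that mitochondrial DNA encodes, all of them core subunits of the respiratory chain and ATP synthase. Their RNA comes from mitochondrial DNA, but every protein of both subunits is encoded in the nucleus, made in the cytosol and imported. Part of these proteins have counterparts in bacterial ribosomes, and the rest are found only in mitochondria. Brown adipocytes are densely packed with mitochondria, and stimulation through Gs and cyclic AMP is known to raise their respiratory capacity.

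The libraries held 849126 to 15260516 counts, and 3 counts, taken as the smallest level that depth can show, corresponded to 0.206 to 3.01 CPM (counts scaled to the library total and its TMM factor). *Gpr3* reached 266 to 463 CPM in chow C-3BO mice and 688 to 918 CPM in HFD C-3BO mice, against at most 0.744 CPM in their controls. All 12 brown adipocyte markers were detected in every library. The library labelled chow CL 5 had *Ucp1* at 1644 CPM, within the 1267 to 1865 CPM of chow saline mice, and chow CL 3 had *Gpr3* at 9.15 CPM. In all 10 libraries of injected mice on HFD, and in HFD C-3BO 4 and 5, there were transcripts of *Alb*, a liver gene, and *Lcn8*, an epididymal gene, while the other 28 had at most 1.62 CPM of *Alb* and no *Lcn8*. Skeletal muscle transcripts varied widely, with 12 markers summing to 979 to 11767 CPM in chow control and 7.24 to 277 CPM in HFD control mice. In bulk tissue, fewer cells of a type and less RNA per cell cannot be told apart, and p-values over mice measure the spread between these samples.

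All 77 genes passed the filter on low counts. Levels per exon length (RPKM, reads scaled to library total and to kilobases of exon) ranged from 1.08 to 250.3 as means over the 40 mice. The highest were *Mrpl34* (250.3 RPKM), *Mrpl12* (198), *Mrpl30* (169.7), *Mrps21* (156) and *Mrpl42* (139). *Mrpl12* encodes the stalk protein that contacts translation factors and is also known to bind the mitochondrial RNA polymerase. The lowest were *Mrpl17* (14.4 RPKM), *Mrpl19* (10.9), *Mrpl1* (9.96), *Mrps33* (7.56) and *Mrpl23*, whose level never passed 1.39 CPM and included a library with 0 counts, so that no change of it could be resolved. The genes are short, with 407 to 6712 counted exon bases and a median of 1051, against 2808 for all tested genes.

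**Figure D1:**
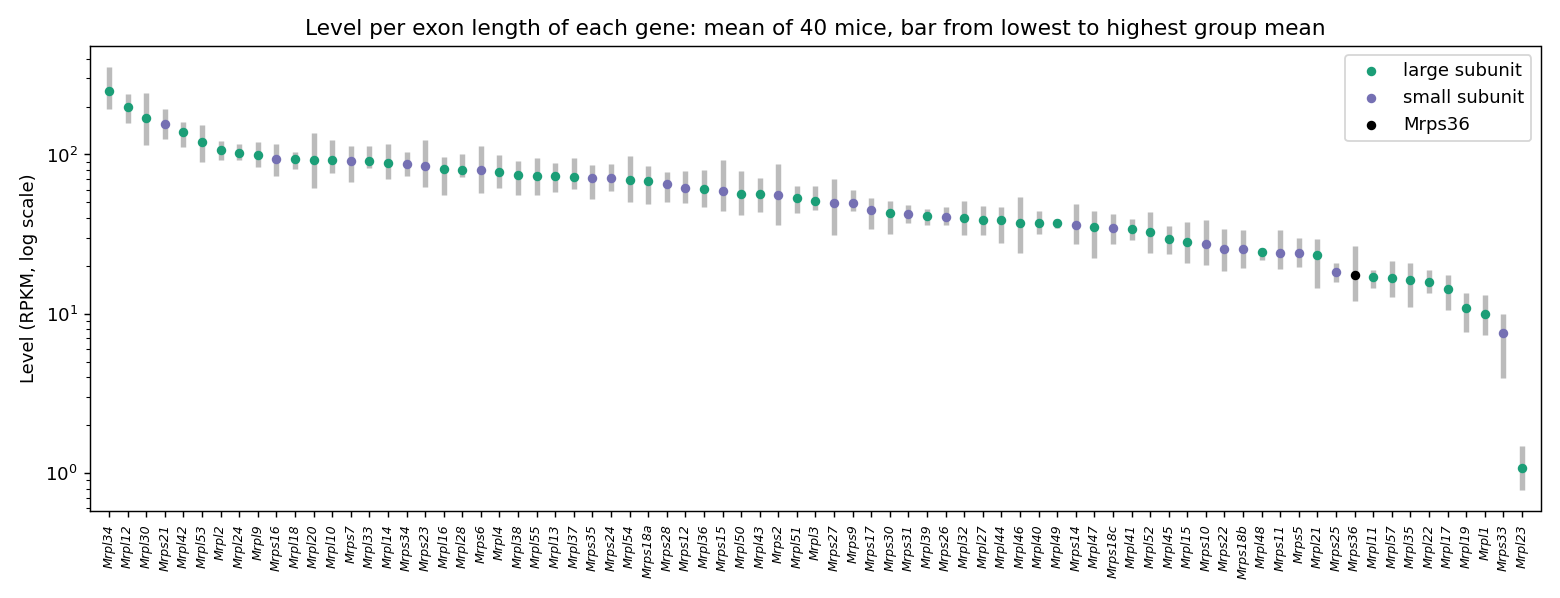
Level of each of the 77 genes per exon length (RPKM, log scale), ordered from high to low. Points are means over 40 mice, grey bars run from the lowest to the highest of the 8 group means, and colours mark the subunit. Most genes lie between 10 and 100 RPKM, and *Mrpl23* lies apart at the bottom at 1.08 RPKM.

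The summed level of the 77 genes gives a first view of their common changes. In chow control mice it was 4479, 4710.1, 4857, 5707 and 6082 CPM, and in chow C-3BO mice 5345, 5345, 5389.7, 5452 and 7018 CPM. These groups overlapped, and the highest chow C-3BO mouse stood clear of the other 4. In HFD control mice the sum was 3740.4, 3742, 4403, 4679 and 5412 CPM, and in HFD C-3BO mice 5607, 5640.2, 5788, 5875 and 6060.0 CPM, so that here no mouse of one group reached the other. In chow saline mice it was 3859, 3950.2, 4346, 4812 and 5016 CPM and in chow CL mice 4987, 5038, 5334, 5586 and 5587 CPM, where only the lowest CL mouse lay below the highest saline mouse. In HFD saline mice it was 3881, 3897, 3983, 3996 and 4049 CPM and in HFD CL mice 4659.5, 4777, 4829.8, 4970.4 and 5207 CPM, again without overlap. As a share of all counts, without TMM scaling, the genes took 0.511 ± 0.0790% (SD, n = 5) in chow control and 0.490 ± 0.0405% in chow C-3BO mice, so the order of these means turned round, whereas it did not for HFD control (0.481 ± 0.0540%) and HFD C-3BO (0.566 ± 0.0213%). The share was 0.443 ± 0.0304% in chow saline, 0.486 ± 0.0182% in chow CL, 0.453 ± 0.0151% in HFD saline and 0.504 ± 0.0127% in HFD CL mice.

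**Figure D2:**
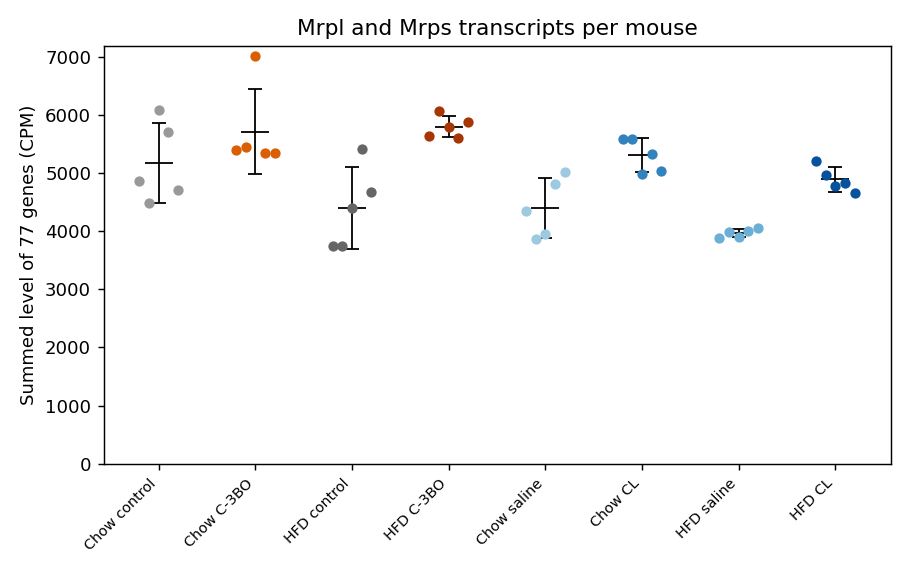
Summed level of the 77 genes (CPM, TMM-scaled) in each of 40 mice. Points are mice, horizontal lines and bars are the mean and SD of 5 mice. HFD C-3BO mice lie at 5607 to 6060.0 CPM, above all HFD control mice, while chow C-3BO and chow control mice overlap, and without TMM scaling the mean share of chow C-3BO mice falls below that of chow control mice.

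*Mrps2*, *Mrpl46*, *Mrps27* and *Mrpl20* are among the 15 genes that were higher in C-3BO and in CL mice on both diets. Their promoters are printed as examples of how these genes differ in sequence. Each sequence runs 5′ to 3′ on the gene's strand from 220 bases before the deposited start to 30 bases of the transcript, in mm9 (NCBIM37). Capitals mark CCGGAAG, the core of ETS factors such as GABP, or AAGATGGC, the core of YY1, on either strand.
Mrps2, chr2:28323366-28323615, plus strand: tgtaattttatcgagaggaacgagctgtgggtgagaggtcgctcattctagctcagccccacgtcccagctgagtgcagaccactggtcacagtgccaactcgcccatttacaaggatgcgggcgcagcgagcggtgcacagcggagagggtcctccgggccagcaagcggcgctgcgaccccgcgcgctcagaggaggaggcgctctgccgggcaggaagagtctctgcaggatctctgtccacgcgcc
Mrpl46, chr7:85927946-85928195, minus strand: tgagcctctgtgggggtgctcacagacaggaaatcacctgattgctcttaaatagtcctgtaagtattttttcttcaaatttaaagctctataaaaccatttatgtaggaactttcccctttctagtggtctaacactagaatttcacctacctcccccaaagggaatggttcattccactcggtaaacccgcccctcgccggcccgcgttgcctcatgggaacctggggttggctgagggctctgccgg
Mrps27, chr13:100114521-100114770, plus strand: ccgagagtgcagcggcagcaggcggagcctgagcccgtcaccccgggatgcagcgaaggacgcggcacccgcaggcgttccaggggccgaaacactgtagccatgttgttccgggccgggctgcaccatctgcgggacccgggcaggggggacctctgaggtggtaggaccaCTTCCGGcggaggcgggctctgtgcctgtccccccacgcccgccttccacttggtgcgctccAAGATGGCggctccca
Mrpl20, chr4:155177507-155177756, plus strand: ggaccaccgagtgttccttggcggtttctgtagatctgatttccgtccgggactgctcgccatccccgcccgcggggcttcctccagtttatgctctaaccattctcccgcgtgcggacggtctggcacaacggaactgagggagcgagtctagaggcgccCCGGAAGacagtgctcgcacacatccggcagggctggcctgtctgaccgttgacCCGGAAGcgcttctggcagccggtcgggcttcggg
*Mrps27* holds both cores and *Mrpl20* holds the ETS core at 2 places, while the windows of *Mrps2* and *Mrpl46* hold no match to either. The windows of *Mrpl1* and *Mrpl50*, which also belong to the 15 genes and are not printed, hold no match either. On either strand, CCGGAAG was found in 28 of the 77 windows (36.36%) and in 11.27% of the windows of all 20295 genes. AAGATGGC was found in 9 (11.69%, against 2.557% of all genes), and CGCATGCG, the core of NRF1, in 6 (7.792%, against 2.37%). CAAGGTCA, read by estrogen-related receptors, was found in 1 window (1.299%, against 0.9263%). TGACGTCA, the cyclic AMP response element, was found in 2 (2.597%, against 2.409%). Among the 25 genes that were higher in at least 3 of the 4 treatment comparisons described next, 6 held the ETS core and 6 the YY1 core. Among the other 52 genes, 22 held the ETS core and 3 the YY1 core. These matches describe letters in a window and no binding was measured.

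Genes of the family often start close to a neighbour. For 24 of the 77 genes (31.2%) a gene on the opposite strand starts within 1000 bases upstream, against 7.75% of all 20295 genes. *Mrpl46* at chr7:85920227-85927975 and *Mrps11* start head to head, 42 bases apart, and both were higher in all 4 treatment comparisons. *Mrps27* starts 108 bases from *Ptcd2*, *Mrpl47* 308 bases from *Ndufb5*, *Mrpl50* 93 bases from *Zfp189*, and *Mrpl43* 116 bases from *Peo1*, the mitochondrial DNA helicase. Spans of 8 genes overlap another gene (10.4%, against 10% of all genes). *Mrpl19*, *Mrpl24*, *Mrpl41*, *Mrpl49* and *Mrps25* overlap a gene on the opposite strand, and *Mrpl53*, *Mrps23* and *Mrps6* one on their own strand, so that the counts of these 8 genes may hold reads of the partner.

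C-3BO was compared with control mice on chow to ask how lasting *Gpr3* expression in thermogenic adipocytes moved these genes. At an adjusted p below 0.05, 24 of the 77 were higher and 4 lower, where 15.8% of all tested genes were higher and 15.9% lower. The median log2 fold change of the family was 0.19, against -0.03 for all tested genes, and with library totals in place of TMM it was -0.02 against -0.23, with 7 higher and 17 lower. Relative to the median of all genes the family stood 0.22 higher with TMM and 0.21 with library totals. *Mrps2*, a small-subunit protein with a bacterial counterpart, rose most. Its levels were 71.0, 74.7, 82.3, 84.1 and 85.2 CPM in chow control and 132, 139, 155, 164 and 177 CPM in chow C-3BO mice. No control mouse reached the C-3BO mice, and the log2 fold change was 0.95 ± 0.13 (SE; adjusted p = 9.21e-07). *Mrps27*, a small-subunit protein that belongs to the family with pentatricopeptide repeats, read 54.6, 56.0, 66.7, 75.5 and 95.1 CPM in control and 99.5, 100.1, 107, 115 and 119.7 CPM in C-3BO mice, again apart, with a log2 fold change of 0.64 ± 0.13 (SE; adjusted p = 0.000266). *Mrpl46*, a large-subunit protein found only in mitochondria, read 21.5, 23.9, 30.3, 32.7 and 44.9 CPM and 43.3, 43.4, 46.5, 49.1 and 63.8 CPM. One control mouse reached the range of the C-3BO mice, and the log2 fold change was 0.69 ± 0.17 (SE; adjusted p = 0.00202). The other large rises were those of *Mrps18a* (0.62), *Mrps18b* (0.57), *Mrps22* (0.54), *Mrps11* (0.53), *Mrps23* (0.48), *Mrpl1* (0.47) and *Mrpl36* (0.42), given as log2 fold changes. Of these, *Mrps18b*, *Mrpl1* and *Mrpl36* showed no overlap between the groups. Skeletal muscle markers summed to 979 to 11767 CPM in these controls and 492 to 4688 CPM in C-3BO mice, with 1 of 12 lower and all 12 below 0. With a muscle score as a covariate, 30 genes were higher and 2 lower. The count of higher genes was 16 without chow C-3BO 3, the mouse with the highest summed level, and 29 without chow control 4.

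The genes that were lower in chow C-3BO mice were *Mrps6*, *Mrps15*, *Mrpl55* and *Mrpl30*, all with bacterial counterparts in their subunit. *Mrps6* read 64.96, 65.4, 72.1, 73.1 and 83.0 CPM in chow control and 40.2, 43.4, 44.3, 55.9 and 61.6 CPM in chow C-3BO mice. The groups did not overlap, and the log2 fold change was -0.55 ± 0.12 (SE; adjusted p = 0.000448). *Mrps6* at chr16:92058581-92112472 shares its span and strand with *Slc5a3*, a myo-inositol transporter, whose log2 fold change was -0.49 ± 0.21 (SE; adjusted p = 0.0628) at similar mean counts (481 and 465), so reads of these neighbours may not be separated. *Mrps15* read 65.6, 78.5, 87.8, 88.0 and 112 CPM in control and 51.0, 57.6, 59.0, 65.5 and 67.2 CPM in C-3BO mice. These ranges touched at the lowest control mouse, and the log2 fold change was -0.53 ± 0.13 (SE; adjusted p = 0.00165). *Mrpl55* (-0.32, adjusted p = 0.0307) and *Mrpl30* (-0.28, adjusted p = 0.0439) fell less, with overlapping groups, and lost the call in 12 of 26 alternatives (adjusted p of up to 0.304) and 15 of 26 (up to 0.328). The count of lower genes was 2 without chow control 4 or without any of chow C-3BO 1, 2, 4 and 5, and 6 without chow C-3BO 3.

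On HFD, 45 of the 77 genes were higher in C-3BO than in control mice and 1 lower, where 19.3% of all tested genes were higher and 15.5% lower. The median log2 fold change was 0.37, against -0.02 for all genes, and 75 of the 77 values lay above 0. With library totals alone the family kept this direction, with 30 higher, 1 lower and a median of 0.20 against -0.19 for all genes. *Mrpl46* rose most. It read 19.9, 23.7, 28.0, 28.0 and 41.2 CPM in HFD control and 46.9, 53.7, 53.9, 61.1 and 61.2 CPM in HFD C-3BO mice. The groups stood apart, and the log2 fold change was 0.98 ± 0.17 (SE; adjusted p = 2.39e-05). *Mrps2* read 64.5, 77.5, 96.2, 115 and 136 CPM in control and 165, 176, 178, 186 and 200.5 CPM in C-3BO mice, also apart, with 0.89 ± 0.13 (SE; adjusted p = 1.85e-06) on the log2 scale. *Mrps36*, the component of 2-oxoglutarate dehydrogenase, read 9.27, 9.33, 9.72, 12.8 and 13.97 CPM and 16.3, 16.7, 17.0, 19.1 and 24.8 CPM, with a log2 fold change of 0.78 ± 0.16 (SE; adjusted p = 0.000193). No control mouse reached the C-3BO mice in this gene either. *Mrpl20*, a large-subunit protein with a bacterial counterpart, read 42.5, 44.5, 48.8, 48.8 and 79.7 CPM and 80.5, 84.8, 92.1, 97.4 and 99.2 CPM. A single control mouse, at 79.7 CPM, came near the C-3BO mice, and the log2 fold change was 0.78 ± 0.13 (SE; adjusted p = 1.25e-05). *Mrpl54* (0.76), *Mrps11* (0.75), *Mrpl38* (0.72), *Mrpl1* (0.71), *Mrps22* (0.71) and *Mrps23* (0.70) followed. *Mrps6* was the gene that fell, by 0.40 on the log2 scale (adjusted p = 0.00817), with overlapping groups. The call was lost in 4 of 26 alternatives, among them those without the 2 HFD C-3BO libraries with liver transcripts (adjusted p = 0.178, over all alternatives 0.000307 to 0.178) and with a liver score as a covariate. *Slc5a3* stood at -0.50 (adjusted p = 0.0619).

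Liver markers moved with this comparison: 14 of 14 tested were higher, summing to 10.5 to 32.7 CPM in HFD control and 81.5 to 548 CPM in HFD C-3BO mice, where replicates 4 and 5 held *Alb* and *Lcn8*. Within these sums the single marker *Cyp2e1* read 8.89 to 31.1 CPM in HFD control and 77.7 to 123 CPM in HFD C-3BO mice. Without these 2 libraries 41 genes were higher, and the median log2 fold change was 0.40. Endothelial markers fell in 3 of 5 genes, summing to 1365 to 1775 CPM in control and 1146 to 1304 CPM in C-3BO mice, and their part in the result was not tested. Among single libraries, the count of higher genes ran from 35 without HFD control 1 to 53 without HFD control 4.

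Whether the C-3BO effect differed between the diets was tested with an interaction term, which 2.09% of all tested genes passed. Of the 77 genes 3 passed, all with a larger log2 fold change on HFD, and 67 of 77 differences lay above 0 with a median of 0.20, against 0.02 for all genes. All tested genes as short as the 26 shortest of the family had a median of 0.25, those of the 25 middle lengths 0.15 and those of the 26 longest 0.0025, and with the length trend removed the family's median was 0.0814 against 0.0231 for all genes. *Mrpl54*, a large-subunit protein found only in mitochondria, read 39.3, 40.3, 41.9, 49.7 and 55.6 CPM in chow control and 38.1, 39.7, 42.7, 44.3 and 51.5 CPM in chow C-3BO mice. On HFD it read 26.5, 31.9, 32.4, 33.3 and 46.3 CPM in control and 46.8, 50.1, 58.8, 60.7 and 71.7 CPM in C-3BO mice. The groups overlapped on chow and stood apart on HFD, and the difference of the log2 fold changes was 0.83 ± 0.17 (SE; adjusted p = 0.00536). *Mrpl28*, a large-subunit protein with a bacterial counterpart, read 80.2, 86.9, 96.6, 96.8 and 113 CPM and 72.7, 73.0, 76.9, 78.7 and 107 CPM on chow and 65.1, 72.9, 80.8, 86.2 and 90.6 CPM and 93.2, 101, 102, 119 and 121 CPM on HFD. Its difference was 0.66 ± 0.15 (SE; adjusted p = 0.0129), from -0.21 (adjusted p = 0.126) on chow and 0.44 (adjusted p = 0.00152) on HFD. *Mrps15* went from -0.53 on chow to 0.18 (adjusted p = 0.308) on HFD, a difference of 0.70 ± 0.18 (SE; adjusted p = 0.0299). This call was lost without the 2 HFD C-3BO libraries with liver transcripts (adjusted p = 0.134) and with a liver score as a covariate (adjusted p = 0.119), and in 19 of 36 alternatives in all, with an adjusted p of up to 0.239. The call of *Mrpl28* was lost in 5 of 36 alternatives (up to 0.0986), and that of *Mrpl54* in 1, without replicate 2 of all groups (adjusted p = 0.0658).

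**Figure D3:**
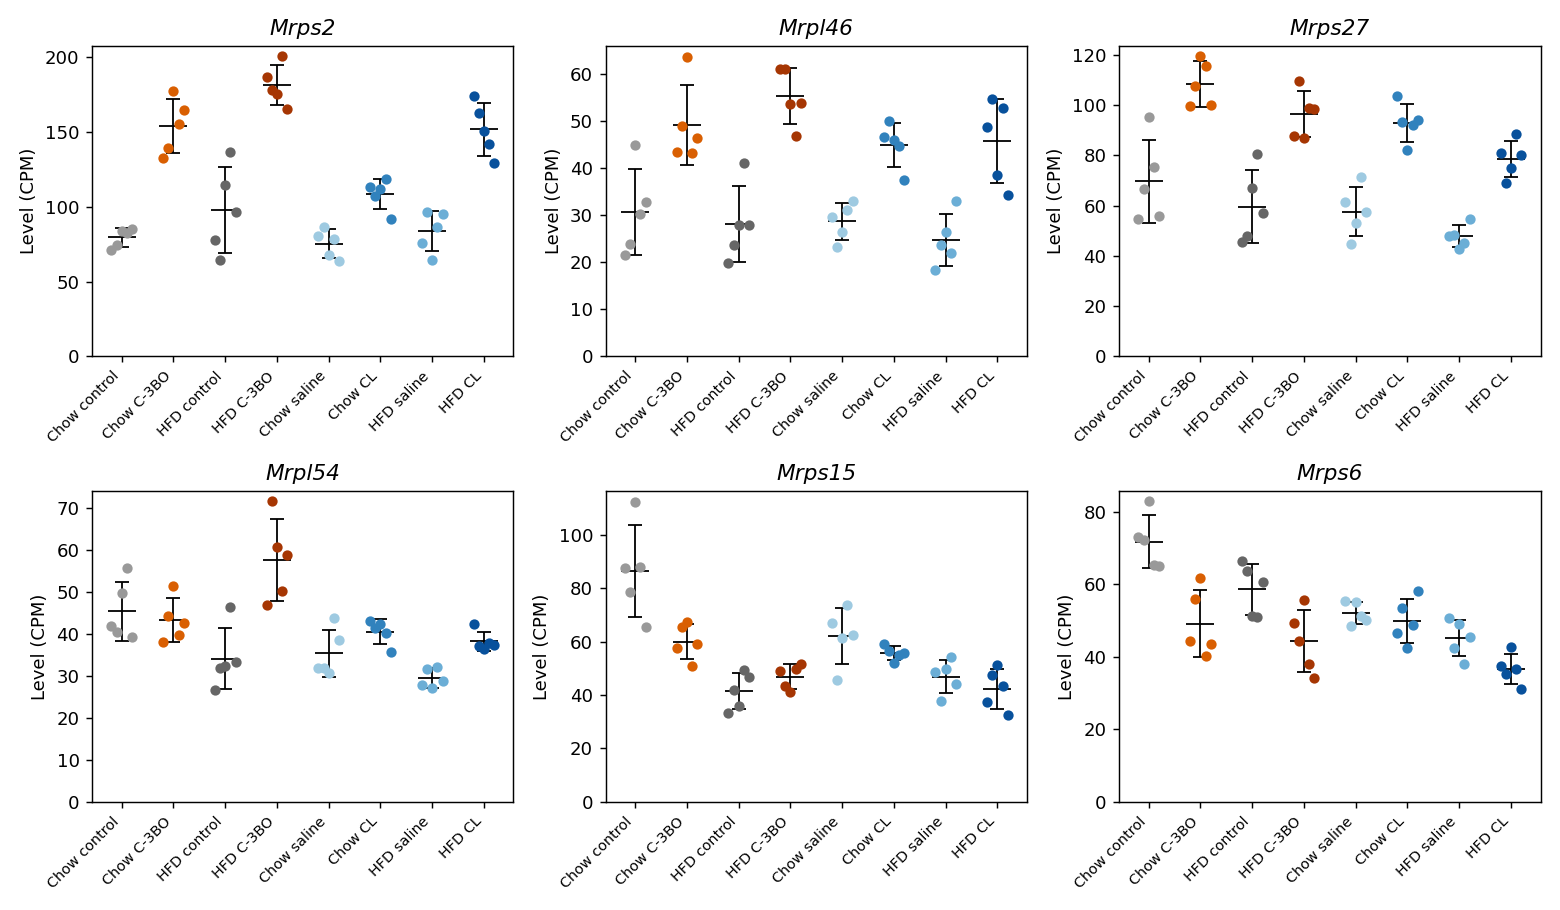
Levels of 6 genes (CPM) in each of 40 mice, with the mean and SD of 5 mice per group. *Mrps2*, *Mrpl46* and *Mrps27* are higher in C-3BO and CL mice than in their controls on both diets, *Mrpl54* differs between C-3BO and control on HFD but overlaps on chow, *Mrps15* is highest in chow control mice, and *Mrps6* is lower in chow C-3BO than in chow control mice.

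CL was compared with saline to ask what repeated β3-adrenergic stimulation did in mice that do not overexpress *Gpr3*. On chow, 29 of the 77 genes were higher, where 9.16% of all tested genes were, and the median log2 fold change was 0.28, against -0.01 for all genes. With edgeR 0 genes were lower (1 at an unadjusted p under 0.05, and 0 with DESeq2), where 6.13% of all tested genes were, while library totals alone gave 18 higher and 2 lower with a median of 0.14. *Mrpl50*, a large-subunit protein found only in mitochondria, read 70.6, 73.8, 89.6, 110.2 and 126 CPM in chow saline and 142, 153, 168, 184 and 184 CPM in chow CL mice. All CL mice were above all saline mice, with a log2 fold change of 0.82 ± 0.16 (SE; adjusted p = 0.000274). *Mrps36* read 6.59, 7.51, 7.61, 9.13 and 11.6 CPM and 13.8, 14.1, 14.5, 15.8 and 16.1 CPM, also apart, with 0.80 ± 0.16 (SE; adjusted p = 0.000563) on the log2 scale. *Mrps27* read 44.9, 52.9, 57.6, 61.3 and 71.3 CPM and 82.1, 91.9, 93.1, 94.1 and 104 CPM, with 0.69 ± 0.13 (SE; adjusted p = 0.000311), and here too no saline mouse reached a CL mouse. *Mrpl1* (0.67), *Mrpl46* (0.65), *Mrpl47* (0.64), *Mrpl27* (0.59), *Mrpl20* (0.58), *Mrpl16* (0.56) and *Mrps21* (0.54) followed, of which *Mrps21* overlapped between the groups. Chow CL 5, the mouse with *Ucp1* in the saline range, had a summed level of 5038 CPM, and without it 30 genes were higher. Skeletal muscle markers were lower in 10 of 12 genes, summing to 16.2 to 3083 CPM in saline and 21.4 to 189.6 CPM in CL mice, and with a muscle score as a covariate 34 of the 77 genes were higher. The count was 19 without chow saline 3 and 36 without chow saline 5.

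On HFD, 35 of the 77 genes were higher with CL, where 12.7% of all tested genes were, and the median log2 fold change was 0.30, against -0.01 for all genes. With edgeR 0 were lower (1 at an unadjusted p under 0.05, and 1 with DESeq2), where 10.8% of all tested genes were, and with library totals alone 18 were higher and 2 lower, with a median of 0.16. *Mrpl46* read 18.5, 22.1, 23.6, 26.6 and 33.0 CPM in HFD saline and 34.3, 38.7, 48.8, 52.8 and 54.8 CPM in HFD CL mice, without overlap, and its log2 fold change was 0.88 ± 0.18 (SE; adjusted p = 0.000476). *Mrps2* read 64.6, 75.6, 86.2, 95.1 and 96.5 CPM and 129, 142, 150.3, 162 and 174 CPM, again apart, with 0.86 ± 0.14 (SE; adjusted p = 1.06e-05). *Mrps33*, a small-subunit protein found only in mitochondria and 1 of the 5 genes with the lowest levels, read 1.00, 3.27, 4.68, 4.76 and 6.93 CPM and 6.54, 6.98, 7.47, 10.4 and 10.6 CPM. These ranges overlapped, the lowest value lay under the floor of 3.01 CPM of its library, the one with the fewest counts, and the log2 fold change was 0.88 ± 0.24 (SE; adjusted p = 0.00568). *Mrpl47* (0.82), *Mrpl16* (0.72), *Mrps27* (0.71), *Mrps22* (0.68), *Mrps36* (0.66), *Mrpl20* (0.63) and *Mrps18a* (0.62) followed, of which *Mrps36* overlapped between the groups. Both groups held liver and epididymal transcripts, with 1 of 14 liver markers higher with CL. Macrophage markers summed to 268 to 655 CPM in HFD saline and 112 to 345 CPM in HFD CL mice, with 2 of 6 lower, and their part in the result was not tested. The count of higher genes was 25 without HFD saline 3. The CL effect on the 77 genes did not pass a test of its difference between the diets in any gene with edgeR or DESeq2 (3 at an unadjusted p under 0.05 with edgeR), a test that 0.0151% of all tested genes passed.

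The 4 treatment comparisons share no library with each other. Across them 15 genes were higher in all 4, namely *Mrps2*, *Mrpl46*, *Mrps27*, *Mrpl1*, *Mrpl20*, *Mrpl50*, *Mrpl47*, *Mrps11*, *Mrps23*, *Mrpl36*, *Mrps5*, *Mrpl44*, *Mrpl43*, *Mrps14* and *Mrpl45*. They include the L1 stalk protein *Mrpl1*, *Mrpl44*, related to ribonuclease III, and *Mrpl45*, which is known to hold the ribosome at the inner membrane. By class they are 4 large-subunit and 4 small-subunit proteins with bacterial counterparts, 5 large-subunit and 2 small-subunit proteins found only in mitochondria. A further 10 genes were higher in 3 comparisons, 15 in 2, 13 in 1 and 24 in none, and 51 of the 77 had a log2 fold change above 0 in all 4. In the single comparisons 15.8%, 19.3%, 9.16% and 12.7% of all tested genes were higher. Counts over several comparisons were not made for all tested genes, so the family's counts here have no background. In all 4, *Mrps2*, *Mrps27* and *Mrpl1* had no mouse of one group within the range of the other. How many of all tested genes were separated in this way was not counted. *Mrpl50* was separated only by CL on chow, and its log2 fold changes in the other 3 were 0.42, 0.54 and 0.48. Over the alternatives of processing, 3 to 19 genes were higher in all 4, with 4 under library totals alone. Across the 77 genes, log2 fold changes of C-3BO and of CL had a Pearson correlation of 0.55 on chow (Spearman 0.54) and 0.69 on HFD (Spearman 0.67). Genes are not independent replicates and the counting of each gene is common to both.

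**Figure D4:**
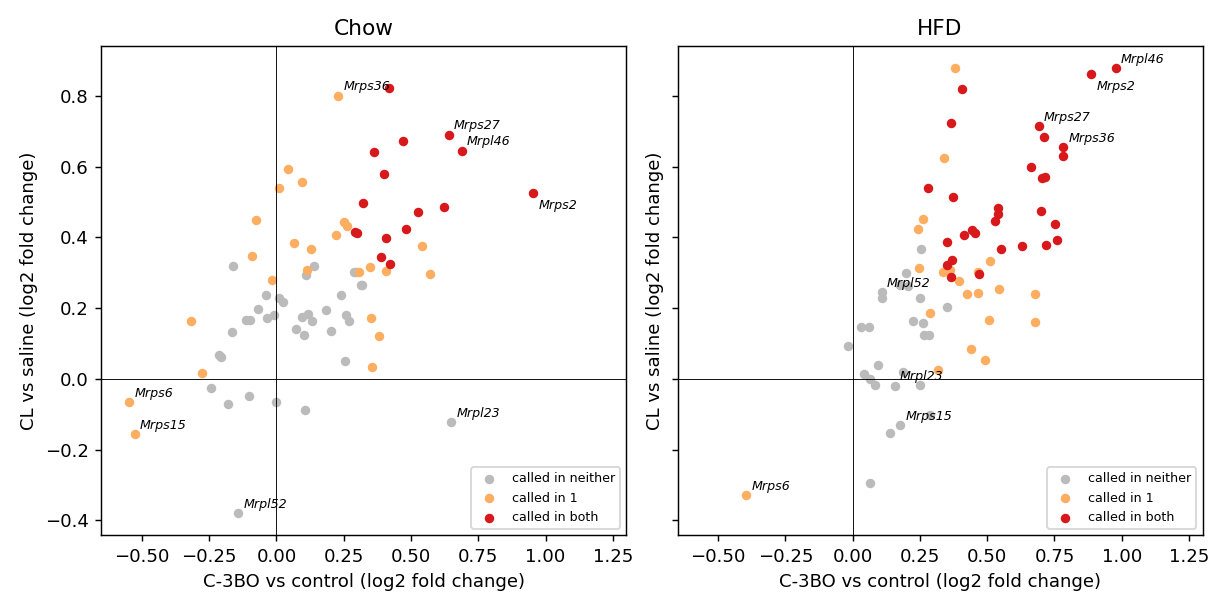
Log2 fold change of each of the 77 genes in C-3BO against control (horizontal) and in CL against saline (vertical), on chow (left) and HFD (right). Colours give the number of the 2 comparisons with an adjusted p below 0.05. On HFD most points lie in the upper right with *Mrpl46* and *Mrps2* at the far end, and *Mrps6* lies at the lower left; with library totals in place of TMM the points of the chow panel shift left, to a median of -0.02 for C-3BO.

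Calls fell in both subunits. Of 50 large-subunit genes, 14 were higher in chow C-3BO, 29 in HFD C-3BO, 20 in chow CL and 22 in HFD CL mice, with median log2 fold changes of 0.11, 0.35, 0.25 and 0.30, where 15.8%, 19.3%, 9.16% and 12.7% of all tested genes were higher, while library totals alone gave 2 higher and 13 lower in chow C-3BO mice with a median of -0.09, and 17, 11 and 11 higher in the others with medians of 0.19, 0.11 and 0.15. Of 26 small-subunit genes, 10, 15, 8 and 12 were higher, with medians of 0.27, 0.37, 0.30 and 0.29, and library totals alone gave 5, 12, 6 and 6 higher with medians of 0.07, 0.21, 0.16 and 0.14. The 10 small-subunit genes classed as found only in mitochondria had medians of 0.25, 0.44, 0.28 and 0.48. This class includes *Mrps18b*, although it is a paralog of bacterial S18. In the 16 classed with bacterial counterparts the medians were 0.27, 0.37, 0.30 and 0.26. The family holds 3 paralogs of bacterial S18, whose difference was not tested. *Mrps18a*, whose product sits in the large subunit, was higher in 3 comparisons, with 0.34 (adjusted p = 0.112) on the log2 scale in HFD C-3BO mice. *Mrps18b* was higher in 3, with 0.30 (adjusted p = 0.0748) in chow CL mice as the exception. *Mrps18c* passed in none, with log2 fold changes of 0.25, 0.06, 0.05 and -0.30. *Mrps30*, also of the large subunit, passed in HFD C-3BO mice (0.68, adjusted p = 0.000114), with 0.26, 0.18 and 0.24 in the comparisons it did not pass, and *Mrpl12* rose in HFD C-3BO (0.55, adjusted p = 0.000827) and HFD CL mice (0.37, adjusted p = 0.0356). Over the 4 treatment comparisons and the 4 of diet, 11 genes passed in none, namely *Mrpl18*, *Mrpl22*, *Mrpl23*, *Mrpl39*, *Mrpl41*, *Mrpl48*, *Mrpl49*, *Mrps9*, *Mrps18c*, *Mrps25* and *Mrps26*. The same count was not made for all tested genes.

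HFD was compared with chow within each arm. Each arm uses the same libraries as the treatment comparisons, so that the control mice here are those of the C-3BO comparisons. In control mice 29 of the 77 genes were lower on HFD, where 17.5% of all tested genes were, with a median log2 fold change of -0.22 against 0 for all genes, and with library totals alone 13 were lower, 7 higher and the median was -0.08. With edgeR 0 were higher (4 at an unadjusted p under 0.05, and 0 with DESeq2), where 15.4% of all tested genes were. *Mrps15* fell most. It read 65.6, 78.5, 87.8, 88.0 and 112 CPM in chow control and 33.4, 35.9, 42.0, 46.8 and 49.5 CPM in HFD control mice, so that all HFD mice lay below all chow mice, with a log2 fold change of -1.06 ± 0.13 (SE; adjusted p = 9.83e-08). *Mrpl34*, the gene with the highest level per length, read 186, 221, 223, 252 and 259 CPM and 92.0, 110.2, 111, 150.0 and 164 CPM, also without overlap, with -0.87 ± 0.12 (SE; adjusted p = 1.04e-06). *Mrpl30*, a large-subunit protein with a bacterial counterpart, read 154, 159, 160.1, 161 and 208 CPM and 89.7, 91.7, 92.5, 98.2 and 111 CPM, again apart, with -0.80 ± 0.11 (SE; adjusted p = 4.73e-07). *Mrpl52* (-0.71), *Mrpl57* (-0.57), *Mrpl35* (-0.55), *Mrpl14* (-0.55), *Mrps10* (-0.53), *Mrpl51* (-0.49) and *Mrpl55* (-0.48) followed, of which *Mrpl57* and *Mrpl14* showed no overlap.

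Other transcripts moved with this comparison. All 12 skeletal muscle markers were lower on HFD, summing to 979 to 11767 CPM in chow control and 7.24 to 277 CPM in HFD control mice, where none or 1 of the 12 was at 0 in a library. All 5 endothelial markers were higher, summing to 695 to 1036 CPM on chow and 1365 to 1775 CPM on HFD. With a muscle score as a covariate, 3 of the 77 genes were lower and the median log2 fold change was -0.04. With a trend over exon length removed in each library, 17 were lower and 6 higher, and the median was -0.03. The count of lower genes was 18 without HFD control 1 and 37 without HFD control 4.

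In C-3BO mice 8 of the 77 genes were higher and 5 lower on HFD, where 13.5% of all tested genes were higher and 12.2% lower, and with library totals alone 28 were higher and 1 lower. *Mrps36* read 9.49, 11.7, 11.9, 12.7 and 14.3 CPM in chow C-3BO and 16.3, 16.7, 17.0, 19.1 and 24.8 CPM in HFD C-3BO mice, without overlap, with a log2 fold change of 0.65 ± 0.16 (SE; adjusted p = 0.00277). *Mrpl54* (0.41), *Mrpl28* (0.39), *Mrps23* (0.36), *Mrpl20* (0.34), *Mrpl4* (0.27), *Mrpl24* (0.27) and *Mrpl10* (0.24) were also higher, and *Mrpl30* (-0.46), *Mrpl52* (-0.46), *Mrps10* (-0.45), *Mrps15* (-0.36) and *Mrpl34* (-0.34) lower. Many of these calls were lost with other settings: *Mrpl20* and *Mrpl4* lost theirs in 18 of 26 alternatives, *Mrpl24*, *Mrpl10* and *Mrpl52* in 16, *Mrps15* in 12, *Mrpl34* in 10 and *Mrps23* in 9. The count of higher genes was 3 without chow C-3BO 1 or without HFD C-3BO 2, 4 or 5, 4 without chow C-3BO 4 or 5 and 5 without chow C-3BO 2, and that of lower genes was 2 without chow C-3BO 3 and 3 without chow C-3BO 2 or HFD C-3BO 1, 3 or 4. Without the 2 HFD C-3BO libraries with liver transcripts, 4 were higher and 2 lower. In saline mice 9 genes were lower on HFD, where 8.04% of all tested genes were, namely *Mrpl30* (-0.71), *Mrpl52* (-0.71), *Mrps33* (-0.69), *Mrpl21* (-0.59), *Mrps15* (-0.43), *Mrpl35* (-0.40), *Mrpl17* (-0.39), *Mrpl34* (-0.38) and *Mrpl38* (-0.34). Of these, *Mrpl34* lost the call in 15 of 26 alternatives, *Mrpl38* in 14, *Mrpl35* in 13 and *Mrps15* in 10, and *Mrps33*, with a value under the floor among HFD saline mice, in 14 of 25. The count of lower genes was 4 without chow saline 1 or 4 and 5 without HFD saline 1. With edgeR 0 were higher in saline mice (0 at an unadjusted p under 0.05 and 0 with DESeq2), where 7.45% of all tested genes were, and library totals alone gave 4 higher and 3 lower. In CL mice 10 were lower, where 12.7% of all tested genes were, with *Mrpl30* (-0.58), *Mrps21* (-0.57), *Mrpl21* (-0.52), *Mrps6* (-0.45), *Mrpl50* (-0.43), *Mrpl34* (-0.42), *Mrps15* (-0.40), *Mrpl57* (-0.37), *Mrpl11* (-0.34) and *Mrpl42* (-0.32). *Mrpl57* lost the call in 18 of 26 alternatives, *Mrpl50* in 15, *Mrpl42* in 13, *Mrps15* in 8, *Mrps6* and *Mrpl11* in 5 and *Mrpl34* in 4. The count of lower genes was 6 without chow CL 1 or HFD CL 5. *Mrps2* was the 1 gene that was higher (0.48, adjusted p = 0.00631, no overlap), where 10.9% of all tested genes were, and library totals alone gave 8 higher and 3 lower. In injected mice *Alb* reached 62.2 to 191 CPM and *Lcn8* 6.02 to 31.8 CPM on HFD. On chow there were at most 1.01 CPM of *Alb* and no *Lcn8*, so that diet and this difference cannot be told apart. The sums of liver markers overlapped (108 to 535 CPM on HFD and 92.1 to 403 CPM on chow). In chow saline mice the single marker *Cyp2e1* read 94.9 to 399 CPM, while *Alb* read at most 0.216 CPM. With a liver score as a covariate, 2 genes were lower in saline and 0 in CL mice.

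*Mrpl30*, *Mrps15* and *Mrpl34* were lower on HFD in all 4 arms, which are separate mice. In control, C-3BO, saline and CL mice 17.5%, 12.2%, 8.04% and 12.7% of all tested genes were lower. How many of them were lower in all 4 arms was not counted. On chow *Mrpl30* read 123, 129, 130.4, 143 and 169.8 CPM in C-3BO and 111, 121, 134, 138 and 155 CPM in saline mice. In chow CL mice it read 121, 131, 135, 137 and 143 CPM. On HFD it read 83.8, 84.5, 109.7, 111 and 114 CPM in C-3BO, 68.2, 77.4, 78.0, 84.1 and 90.3 CPM in saline and 68.3, 86.5, 92.3, 93.0 and 103 CPM in CL mice. With the control mice above, no HFD mouse reached the chow mice of its arm in *Mrpl30*. The number of all tested genes separated in this way was not counted. Its log2 fold changes were -0.80 in control, -0.46 (adjusted p = 0.00152) in C-3BO, -0.71 (adjusted p = 3.68e-05) in saline and -0.58 (adjusted p = 0.000149) in CL mice. With library totals alone, *Mrps15* and *Mrpl34* no longer passed in C-3BO, saline or CL mice and *Mrpl30* passed in all 4 arms. In C-3BO, saline and CL mice *Mrps15* lost the call in 12, 10 and 8 of 26 alternatives and *Mrpl34* in 10, 15 and 4. *Mrpl30* lost the call in CL mice with the liver score (adjusted p = 0.163, over all alternatives 9.51e-06 to 0.163) and in C-3BO mice in 2 of 26 alternatives, with the muscle score (adjusted p = 0.0587, over all alternatives 0.000224 to 0.0587) and without the 2 libraries with liver transcripts.

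**Figure D5:**
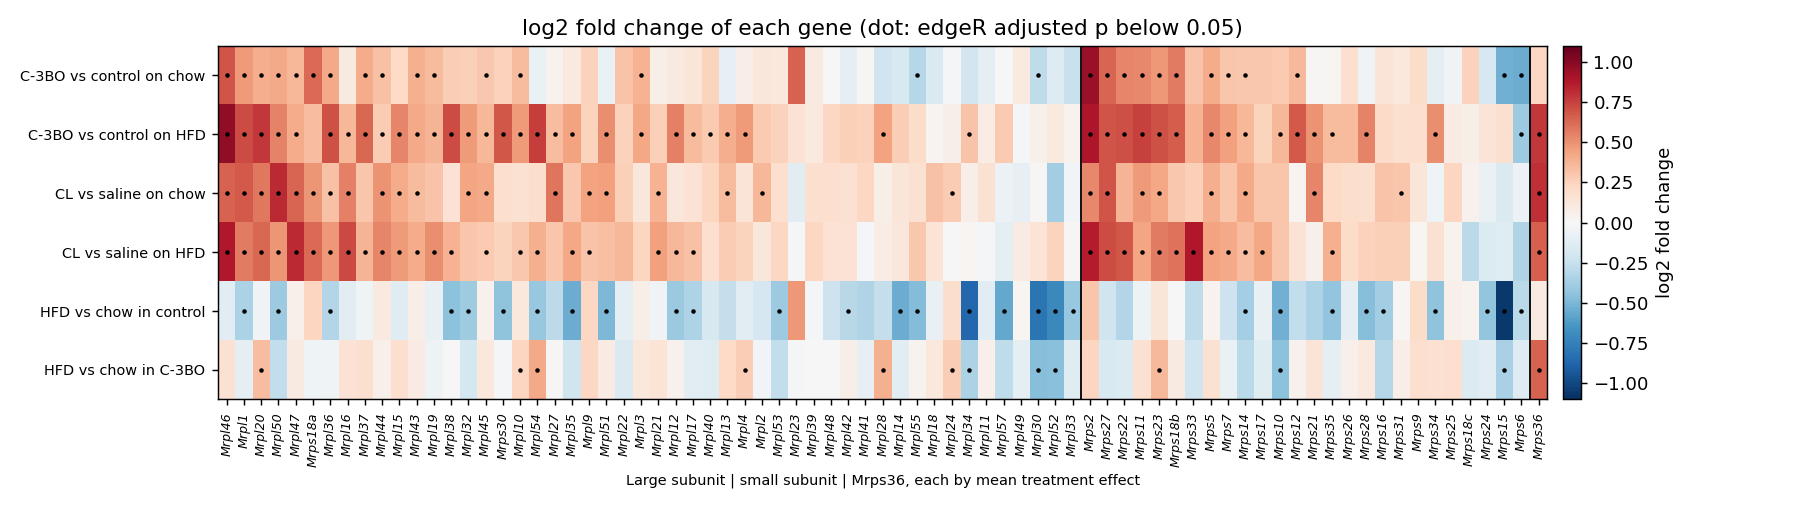
Log2 fold change of each of the 77 genes in 6 comparisons, ordered within large subunit, small subunit and *Mrps36* by their mean treatment effect. Dots mark an adjusted p below 0.05. The 4 treatment rows are mostly red with 24, 45, 29 and 35 genes higher, the row of HFD against chow in control mice is mostly blue with 29 lower, and with library totals alone the first row has 7 higher and 17 lower.

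Ribosomal proteins act with factors that the rule on symbols does not take in. In chow C-3BO, HFD C-3BO, chow CL and HFD CL mice, 15.8%, 19.3%, 9.16% and 12.7% of all tested genes were higher, in this order. Of 14 translation factors of mitochondria, 7 were higher in chow C-3BO, 12 in HFD C-3BO, 8 in chow CL and 9 in HFD CL mice, with medians of 0.33, 0.45, 0.40 and 0.48, against 0.14, 0.29, 0.27 and 0.34 with library totals alone. The largest among called genes in HFD C-3BO mice, as log2 fold changes, were *Mtif2* (0.73), *Tufm* (0.59), *Gfm1* (0.57) and *Taco1* (0.53). *Mtif2*, the initiation factor, rose by 0.73 ± 0.11 (SE; adjusted p = 3.18e-06) in HFD C-3BO and 0.79 ± 0.12 (SE; adjusted p = 3.36e-06) in HFD CL mice. Another list held 22 tested genes that load tRNAs of mitochondria, namely aminoacyl-tRNA synthetases and the amidotransferase subunits *Gatb*, *Gatc* and *Qrsl1*. Of these, 15 were higher in chow C-3BO, 14 in HFD C-3BO, 11 in chow CL and 11 in HFD CL mice. Their medians were 0.44, 0.56, 0.37 and 0.36, against 0.24, 0.39, 0.24 and 0.22 with library totals alone. The largest among called genes in HFD C-3BO mice, as log2 fold changes, were *Cars2* (1.00), *Gars* (0.95), *Sars2* (0.92) and *Wars2* (0.73). *Gars* encodes the enzyme of the cytosol as well. Of 24 tested factors that assemble or modify the mitochondrial ribosome, 12 were higher in chow C-3BO, 12 in HFD C-3BO, 5 in chow CL and 7 in HFD CL mice, with medians of 0.34, 0.37, 0.17 and 0.19, against 0.14, 0.20, 0.04 and 0.05 with library totals alone. The largest among called genes in HFD C-3BO mice, as log2 fold changes, were *Rnmtl1* (0.89), *Mettl15* (-0.89), *Mpv17l2* (0.73) and *Fastkd2* (0.72). *Mettl15*, a methyltransferase of the small-subunit RNA, was the 1 member of this list that was lower in HFD C-3BO mice. A list of 17 tested factors covered mitochondrial transcription and RNA processing, and also replication of mitochondrial DNA (*Polg*, *Polg2*, *Peo1* and *Ssbp1*). Of these, 12 were higher in chow C-3BO, 9 in HFD C-3BO, 7 in chow CL and 11 in HFD CL mice. Their medians were 0.40, 0.33, 0.34 and 0.47, against 0.21, 0.16, 0.21 and 0.33 with library totals alone. *Hsd17b10* was lower in HFD CL mice (-0.39, adjusted p = 0.0179). The largest among called genes in HFD C-3BO mice, as log2 fold changes, were *Trmt10c* (0.92), *Tfb2m* (0.80), *Elac2* (0.76) and *Tefm* (0.61). *Tfb2m*, which starts transcription with the mitochondrial RNA polymerase, was higher in all 4, with 0.80 ± 0.12 (SE; adjusted p = 5.93e-06) in HFD CL mice. Of 6 tested subunits that carry other symbols, 2, 5, 3 and 3 were higher in the same order, and with library totals alone 1, 4, 1 and 2, beside 3 lower in chow C-3BO mice. *Ptcd3*, a small-subunit protein, was higher in all 4, with 1.00 ± 0.12 (SE; adjusted p = 1.2e-07) in HFD CL mice.

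Of 11 coactivators and transcription factors known to act on nuclear genes of mitochondria, 1 was higher and 2 lower in chow C-3BO, 3 higher and 2 lower in HFD C-3BO, 2 higher and 1 lower in chow CL, and 1 higher and 2 lower in HFD CL mice, and with library totals alone the counts higher were 1, 2, 1 and 1 and those lower 4, 2, 1 and 3. Of all tested genes, 15.8%, 19.3%, 9.16% and 12.7% were higher and 15.9%, 15.5%, 6.13% and 10.8% lower. *Gabpa*, the subunit of GABP that binds the ETS core, was higher in all 4, by 0.84 ± 0.11 (SE; adjusted p = 7.57e-07) in chow C-3BO and 0.72 ± 0.12 (SE; adjusted p = 1.61e-05) in HFD CL mice, also with library totals alone. *Myc* was lower in all 4, with -2.57 ± 0.38 (SE; adjusted p = 2.16e-06) in chow C-3BO and -1.17 ± 0.36 (SE; adjusted p = 0.0168) in HFD CL mice, also with library totals alone. *Ppargc1a*, which encodes PGC-1α, had log2 fold changes of 0.04, 0.19, 0.13 and -0.02 and passed in none of the 4.

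Subunits of complex I, which hold proteins made by the mitochondrial ribosome, and the proteins of the cytosolic ribosome were set beside the family, with the same shares of all tested genes higher and lower as background. Of 36 tested nuclear subunits of complex I, 20 were higher in HFD C-3BO, 15 in chow CL and 13 in HFD CL mice, while in chow C-3BO mice 4 were lower, with a median log2 fold change of -0.09 against 0.19 for the 77 genes. With library totals alone the counts higher were 0, 15, 7 and 9, those lower 23, 1, 0 and 2, and the medians -0.30, 0.23, 0.17 and 0.13. On HFD, 28 of the 36 were lower in control mice (median -0.50), where 17.5% of all tested genes were. Skeletal muscle markers fell in the same comparison, summing to 979 to 11767 CPM in chow control and 7.24 to 277 CPM in HFD control mice. All tested genes of 407 to 898 exon bases had a median of -0.28 in this comparison and of -0.12 for C-3BO on chow. The complex I counts were not refitted with a muscle score or with the length trend removed, so the part of either was not tested. Of 73 tested proteins of the cytosolic ribosome, 15 were lower in chow C-3BO, 21 in HFD C-3BO, 4 in chow CL and 22 in HFD CL mice, with medians of -0.29, -0.31, -0.14 and -0.35, and 2 and 2 were higher in HFD C-3BO and HFD CL mice. With library totals alone 42, 35, 17 and 34 were lower and 0, 2, 0 and 1 higher, with medians of -0.49, -0.48, -0.28 and -0.49. The difference between these lists was not tested. Cytosolic ribosomal proteins have many processed copies in the genome, so that their counts are less certain.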

How the data were processed

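Poly(A) RNA of BAT from 40 mice was sequenced (TruSeq, Illumina HiSeq). The authors mapped reads to mm9 with STAR, made tag directories with HOMER and counted exon reads of RefSeq genes with iRNA-seq, and the deposited values are raw counts per gene. Versions, read filters and strand handling are not given in the sources used here.

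Counts were analysed with edgeR 4.0.16 in R 4.3.3 (limma 3.58.1). Genes were kept with filterByExpr at a minimum count of 10, which left 13277 of 20295. Libraries were scaled by TMM, with factors of 0.798 to 1.18. The quasi-likelihood test used a fit of the 40 libraries with a mean for each of the 8 groups, Benjamini-Hochberg adjustment over the 13277 genes and a call at 0.05. CPM are counts scaled to the TMM-scaled library total. Log2 CPM for scores, the length trend and correlations of pairs used a prior count of 2. Log2 fold changes used edgeR's default prior count, and SEs were derived from the F statistic. A floor of 3 counts covers counting error only. In every pair of replicates counts differed by more than sampling noise.

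The members and lists were chosen with earlier results of these data known. Per comparison, the 10 called members with the largest log2 fold change in each direction were named, together with the 5 highest and 5 lowest per length, those called in all 4 treatment comparisons or in an interaction, and members with other roles. Of other lists up to 4 called genes were named. *Mtif2* in HFD CL mice, *Tfb2m*, *Ptcd3*, *Gabpa*, *Gabpb1*, *Nrf1*, *Yy1*, *Myc*, *Ppargc1a*, *Ppargc1b* and *Slc5a3* were chosen after their values were seen. So were neighbouring genes, genes never called and examples of values.

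Alternatives were RLE factors, library totals alone, no filter, at least 10 counts in every library, DESeq2 1.42.0, the libraries of a comparison alone, a replicate block, removal of a trend over exon length, leaving out replicates, and leaving out 2 HFD C-3BO libraries. Leaving out single libraries and muscle or liver scores as covariates were added after seeing the data. The fits were tested on simulated data. Promoter windows were read from NCBIM37 by the deposited starts. Figures were drawn with matplotlib 3.10.9 in Python 3.11.15.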

Additional observations from a re-analysis of the deposited data

Results flagged for a closer look

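In 104 groups of 5 mice, the highest and lowest values were set against the range of their group, a check that chance passes in about 1 of 20 groups. Chow C-3BO 3 stood above the other 4 chow C-3BO mice in the summed level of the 77 genes (7018 CPM, others 5345 to 5452). The same mouse stood apart in *Mrpl46* (63.8 CPM, others 43.3 to 49.1), *Mrpl28* (107 CPM, others 72.7 to 78.7) and *Mrpl12* (295 CPM, others 189.9 to 210.0). HFD control 4 stood apart in *Mrpl20* (79.7 CPM, others 42.5 to 48.8) and *Mrpl50* (125.9 CPM, others 68.5 to 85.0). *Mrpl50* also had a single high mouse among chow control mice (replicate 3, 162 CPM, others 93.7 to 111) and among HFD saline mice (replicate 5, 114 CPM, others 75.2 to 84.7). The remaining ones were *Mrpl1* in HFD C-3BO 4 (48.7 CPM, others 39.02 to 41.4) and *Mrpl54* in HFD CL 1 (42.2 CPM, others 36.4 to 37.8).

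A difference of the C-3BO effect between the diets passed edgeR's interaction test in *Mrpl54* (0.83 on the log2 scale, adjusted p = 0.00536), *Mrps15* (0.70, adjusted p = 0.0299) and *Mrpl28* (0.66, adjusted p = 0.0129). For *Mrpl28* the group that includes chow C-3BO 3 enters this difference, and without replicate 3 of that group it was 0.74, and over 36 alternatives its adjusted p in edgeR or DESeq2 ran from 0.00226 to 0.0986.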

How the results depend on the processing

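With library totals alone, C-3BO on chow gave 7 higher, 17 lower and a median log2 fold change of -0.0182, C-3BO on HFD a median of 0.20, CL on chow 18 higher and 2 lower, and CL on HFD 18 higher, 2 lower and a median of 0.16. HFD against chow then gave 7 higher, 13 lower and a median of -0.0815 in control, 28, 1 and 0.20 in C-3BO, 4, 3 and 0.0546 in saline, and 8, 3 and 0.0475 in CL mice, and the diet difference of the C-3BO effect was called in 7 genes. Relative to the median of all tested genes, the family stood higher by 0.121 to 0.265 for C-3BO on chow, 0.315 to 0.488 for C-3BO on HFD, 0.211 to 0.327 for CL on chow and 0.280 to 0.333 for CL on HFD over 17 settings, and by -0.277 to -0.0126 for HFD in control mice. No named gene changed direction with a call under any alternative run. Calls of named genes were lost for 2 with DESeq2, 2 with RLE factors, 20 with library totals alone, 7 without a filter, 3 with at least 10 counts, 14 with their own libraries, 3 with the replicate block, 5 with the length trend removed, 28 with the liver score, 20 with the muscle score, 11 without the 2 HFD C-3BO libraries and 14 to 28 without 1 replicate number in all groups. With at least 10 counts in every library, *Mrps33* and *Mrps36* were dropped (fewest counts 1 and 9), so their calls were not assessed there.

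CL on HFD gave 1 lower gene, in place of 0, with RLE factors, at least 10 counts in every library, DESeq2, the libraries of the comparison alone, the replicate block and without the 2 HFD C-3BO libraries with liver transcripts. The diet difference of C-3BO was called in 5 genes with DESeq2 or at least 10 counts, and in 1 with its own libraries or without those 2. C-3BO on chow gave 2 lower with its own libraries or the muscle score, and C-3BO on HFD 0 lower without the 2 libraries or with the liver score. In C-3BO mice HFD gave 4 higher without a filter, 5 with at least 10 counts, 4 with its own libraries, 4 higher and 2 lower without the 2 libraries or with the liver score, and 0 lower and a median of 0.15 with the muscle score. In control mice HFD gave 17 lower with its own libraries, 3 lower and a median of -0.0369 with the muscle score, and 6 higher, 17 lower and a median of -0.0349 with the length trend removed. In saline mice it gave 4 lower with its own libraries and 2 with the liver score. In CL mice it gave 2 higher with at least 10 counts or its own libraries, 5 higher with the length trend removed, and 0 higher and 0 lower with the liver score. CL on chow had 1 lower with the length trend removed. Where a covariate, scaling or filter moved a count, the cause was not tested.

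Leaving out 1 replicate or library, C-3BO on chow gave 14 to 30 higher and 2 to 6 lower (median 0.113 to 0.259), C-3BO on HFD 32 to 53 and 0 to 1 (0.283 to 0.469), CL on chow 12 to 36 and 0 (0.200 to 0.323), and CL on HFD 14 to 35 and 0 to 1 (0.266 to 0.328). HFD gave 0 to 2 higher and 17 to 37 lower in control (-0.314 to -0.126), 0 to 8 and 1 to 6 in C-3BO (-0.0201 to 0.0843), 0 and 2 to 12 in saline (-0.173 to -0.0758), and 1 to 2 and 4 to 11 in CL mice (-0.153 to -0.0782). The diet difference was called in 0 to 6 genes for C-3BO (median 0.111 to 0.276) and in 0 for CL (-0.0132 to 0.0999).

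The mice share only a replicate number by their labels, and in no comparison did all 5 same-numbered pairs correlate above 0.1 in their deviations from the group means. For C-3BO and control on chow 3 of 5 did (mean 0.172, against -0.0411 for other numbers), with 3 of 5 best with their own number, and for CL and saline the means were -0.0332 on chow and -0.0748 on HFD. With the replicate block C-3BO on chow gave 26 higher and CL on HFD 1 lower.

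Depth limits low genes most: in the shallowest library 3 counts equal 3.01 CPM, where *Mrps33* read 1.00 CPM.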

Other observations

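Exon length and change went together to some degree within the family. In chow C-3BO mice the 26 shortest genes (407 to 898 exon bases) had a median log2 fold change of -0.0024, with 4 higher and 3 lower, and the 26 longest (1419 to 6712) one of 0.25, with 12 higher and 0 lower, where all tested genes of the same lengths had medians of -0.12 and -0.02. For HFD against chow in control mice the 26 shortest had a median of -0.32 with 14 lower and the 26 longest -0.06 with 8 lower, where all tested genes had -0.28 and 0.05. The medians of the 26 shortest were positive in the other treatment comparisons, at 0.29 for C-3BO on HFD, 0.18 for CL on chow and 0.24 for CL on HFD.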
